A study of Mus musculus with 2 samples.

Results

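The lysosome is the acidic compartment in which cells break down proteins, sugars, lipids and engulfed debris. The 31 genes described here encode lysosomal proteins and were listed by name for that function, without a threshold on any measured value. The choice was made with earlier results of these data known, so the list is not independent of the data. The genes were 31 of the 19169 genes in the deposited table, and all 31 were present. By role they comprised 9 cysteine peptidases (Ctsb, Ctsc, Ctsf, Ctsh, Ctsk, Ctsl, Ctss, Ctsz and Lgmn), 3 other peptidases (Ctsa, Ctsd and Tpp1) and 6 glycosidases (Hexa, Gaa, Gla, Glb1, Man2b1 and Neu1). The others were 5 lipid-handling genes (Psap, Npc1, Npc2, Lipa and Asah1), 5 membrane proteins (Lamp1, Lamp2, Cd63, Cd68 and Scarb2), 2 subunits of the proton pump (Atp6v0d2 and Atp6v1a) and progranulin (Grn). Their levels were compared across cell types, across groups of macrophages and of fibro-adipogenic progenitors (FAPs), and between a WT and a GSDME-KO library.

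Gastrocnemius muscle was collected 14 days after cardiotoxin (CTX), a toxin from cobra venom that kills muscle fibers. Single cells were profiled with a droplet-based 5′ kit that tags each RNA molecule with a unique molecular identifier (UMI). One library came from WT mice and 1 from GSDME-KO mice, which carry a knockout of Gsdme, the gene of the pore-forming protein gasdermin E, and both had received CTX. The methods give 5 male mice per genotype, bred as littermates from heterozygous crosses, and do not say whether they were pooled; their age is not given in the sources used here. With neither an uninjured nor a replicate library here, the genotypes were not tested against each other, and p-values are not given.

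In skeletal muscle the lysosome is best known for the work of macrophages, which clear dead fibers and digest them in phagolysosomes. Cathepsins are the peptidases of this compartment, several glycosidases and lipid enzymes are known from inherited storage diseases, and the proton pump keeps the lumen acidic. Some members also act elsewhere. Cathepsin K digests collagen, cathepsin S trims the invariant chain for antigen presentation, and CD63 is also found on exosomes.

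A level is given as CPM, the UMIs of a gene summed over the cells of a group in a library per 1000000 UMIs of those cells. A pair of values gives the library labelled WT first and the library labelled KO second. Ratios are log2 ratios of levels with exact 95% binomial intervals, and levels carry exact Poisson intervals; both cover counting error only, not the spread between mice or libraries. A gene was compared if the cells compared held at least 50 of its UMIs. "Past the fold" means a log2 ratio of at least 1 in size in each library between cell types, at least 0.5 in each library between groups of one type, and at least 0.5 between the libraries.

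The libraries held 6354 and 7078 cells, with a median of 5740 and 5962.5 UMIs per cell; 686 and 633 cells had fewer than 1000 UMIs, and 4 barcodes occurred in both. Gsdme itself was not lower in the library labelled KO, at 5.03 CPM (4.39 to 5.73) and 4.65 CPM (4.08 to 5.29), giving a log2 ratio of -0.11 (-0.38 to 0.16) between them. The deleted part of the gene is not given in the sources used here, so this does not check the labels, and each library is named by its label. Cell types were named from fixed markers that hold none of the 31 genes, and neither these genes nor 65 other lysosome genes entered the clustering. Macrophage-like cells numbered 858 and 1040, FAP-like cells 2115 and 2540, and endothelial-like cells 1371 and 1336. The FAP-like cells include 404 and 362 cells of a cluster that scored highest for markers of tenocytes, the cells of tendon, and had Chad and Wif1 among its leading genes. Schwann-like cells numbered 209 and 176, muscle stem cell (MuSC)-like cells 242 and 243, pericyte-like cells 178 and 218, dendritic-like cells 115 and 128, and T cell-like cells 83 and 87. The complement gene C1qa is among the markers that gave the macrophage name, so its level is not a separate check of that name. Macrophage-like cells held 3633 and 3377 CPM of C1qa, and FAP-like cells held 10.3 and 10.9 CPM. Of the macrophage-like cells, 54 and 65 carried markers of a second lineage and 131 and 183 were shallow (median 908 and 992 UMIs); the count of members higher in macrophage-like cells was 23 with and without them.

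The members lie on 17 chromosomes of mm10, and most are not neighbors. An exception is the pair Ctsk (chr3:95499256-95509362) and Ctss (chr3:95526786-95556403), which follow each other on the plus strand and, as described further on, had opposite levels in macrophage-like and FAP-like cells. In 10 of the 31 members, exons share bases with exons of another gene. Ctsd shares 34.4% of its exon bases with the predicted gene Gm49369 on the same strand, and Ctsl shares 26.8% with Gm47123 on the opposite strand; whether counting used the strand is not given in the sources used here, so reads of these pairs may not be told apart.

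Many lysosomal genes are known to carry, close to their start, a palindrome with the core CACGTG, the element bound by the transcription factor TFEB and its relatives. Because most members stood high together in 1 cell type, their promoters were searched for it. RefSeq promoter windows (GRCm38.p6, 250 bases before to 50 after the start) were matched for 26 of the 31 members; Ctsb, Ctsh, Npc1, Asah1 and Atp6v0d2 had no entry. On either strand, CACGTG occurred in a window of 10 of the 26 matched members (38.5%) and of 8.09% of 27025 genes. A gene counted if any of its windows held a match, with 29 windows for the 26 members and 32851 for all genes. The longer forms GTCACGTG and TCACGTGA, which both contain the shorter one, occurred in 6 members (23.1%, against 2.55% of all genes) and in 4 (15.4%, against 1.12%). These counts describe letters in a window and do not show that a factor binds there. A run of 30 bases is shown for 4 members whose match lies outside annotated exons, as examples of the element in a cysteine peptidase, a glycosidase, a membrane protein and a pump subunit; capitals mark the 8-base match, and each run is read 5′ to 3′ on the strand of its gene.
Lgmn: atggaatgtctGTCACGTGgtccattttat
Glb1: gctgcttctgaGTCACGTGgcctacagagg
Lamp1: atgccgactggCACGTGACcacatcacgtg
Atp6v1a: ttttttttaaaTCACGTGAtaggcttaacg

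The Lgmn run lies at chr12:102439125-102439154 on the minus strand, its match ending 43 bases before the RefSeq start, inside the annotated span of Lgmn but in no exon. The Glb1 run lies at chr9:114401017-114401046 on the plus strand, 42 bases before the start and in no annotated gene. Lamp1 carries its run at chr8:13159122-13159151 on the plus strand, 20 bases before the start, also in no gene. The Atp6v1a run lies at chr16:44139373-44139402 on the minus strand, 124 bases before the start, inside the span of Atp6v1a but in no exon. Members with the element stood on both sides of the comparison described next. Lgmn and Atp6v1a were among the members past the fold in macrophage-like cells, whereas Glb1 was not, and Ctsf and Gaa, which also hold CACGTG, were lower there.

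The members stood highest in macrophage-like cells. Together they made up 2.09% and 2.16% of the UMIs of macrophage-like cells, compared with 0.560% and 0.586% in all other named cells. FAP-like cells followed among the large types (0.672% and 0.696%), with dendritic-like cells near them (0.70% and 0.653%), then Schwann-like (0.505% and 0.499%), MuSC-like (0.457% and 0.424%), pericyte-like (0.429% and 0.383%), endothelial-like (0.344% and 0.349%) and T cell-like cells (0.248% and 0.186%). The order of dendritic-like and FAP-like cells changed between the libraries, and the interval of pericyte-like cells in the library labelled WT (0.408 to 0.450%) overlapped that of MuSC-like cells (0.447 to 0.467%). Macrophage-like cells were 13.5% and 14.7% of all cells and gave 10.7% and 11.6% of all UMIs, yet gave 31.4% and 33.5% of the members' UMIs; FAP-like cells gave 38.4% and 41.6%.

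**Figure D1:**
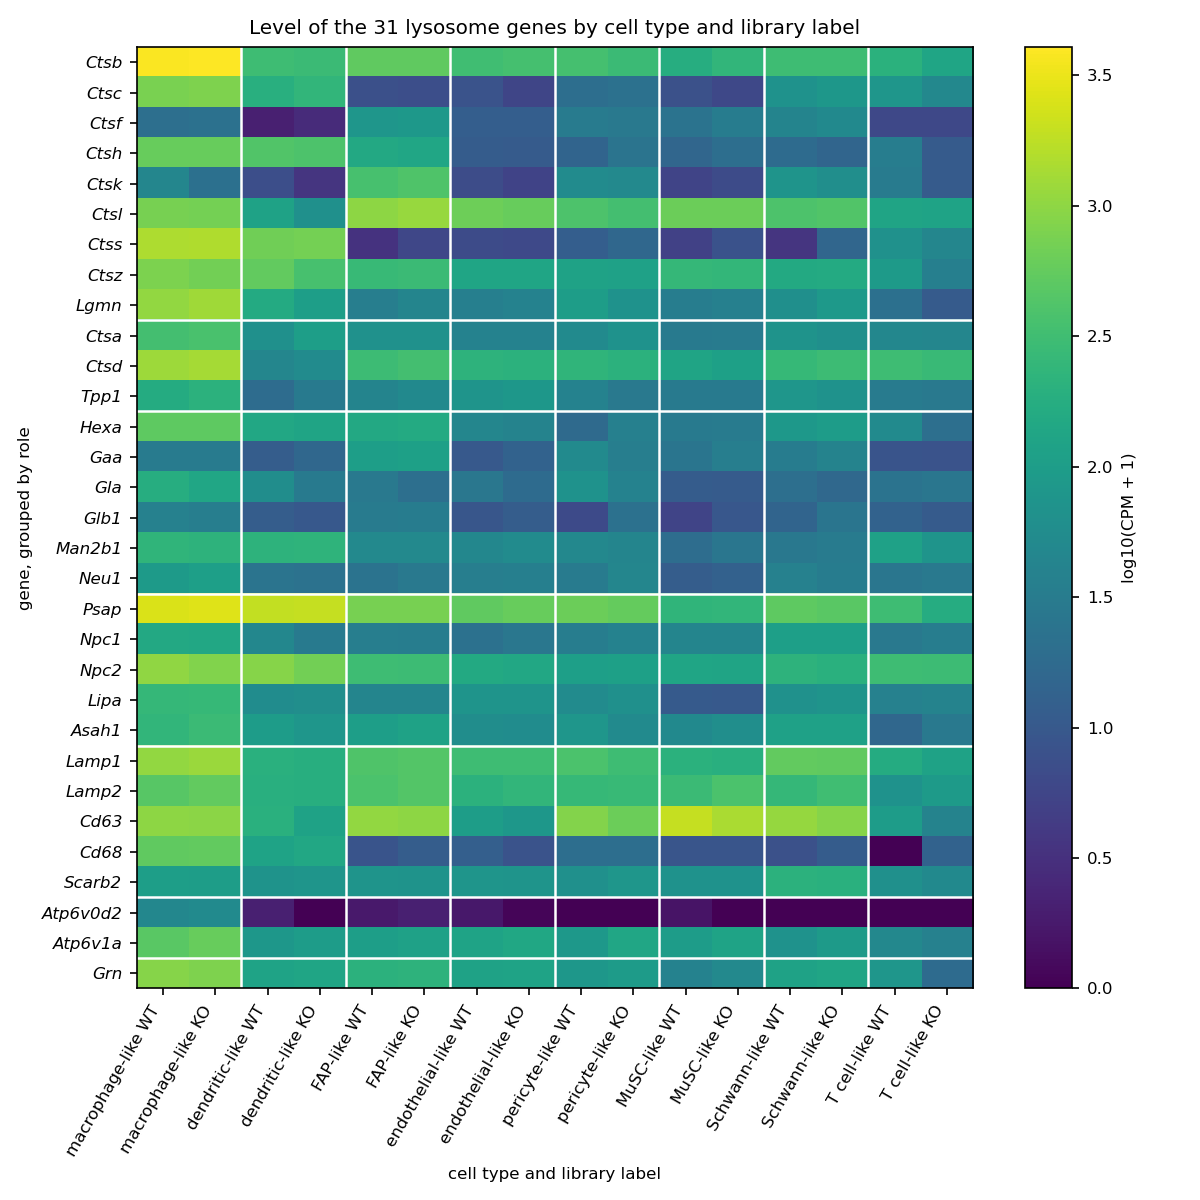
Level of each of the 31 lysosome genes (rows, grouped by role) as log10(CPM + 1) in 8 cell types of 50 or more cells per library (columns, library labelled WT left of library labelled KO). Most rows are brightest in the macrophage-like columns, Ctsk, Ctsf, Gaa and Ctsl are brightest in the FAP-like columns, Cd63 in the MuSC-like columns and Scarb2 in the Schwann-like columns.

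In macrophage-like cells 23 of the 31 members were higher than in all other named cells by at least the fold set, where 9.31% of all 14108 genes compared were. Only Ctsf, Ctsk and Gaa were lower past the fold, where 26.9% of all genes were, and Cd63, Ctsl, Glb1, Lamp2 and Scarb2 were past it in neither direction. The median of the members' log2 ratios was 2.04, with a range from -3.00 to 5.93 for the mean of both libraries, and the median of all genes was -0.47. Of these 8 cell types, macrophage-like cells had the highest level of 24 members in both libraries, compared with 6.17% of 13989 genes.

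The cysteine peptidases held members far above and far below the other named cells. Ctsc encodes cathepsin C, which activates granule proteases; its level was 758 and 818 CPM in macrophage-like cells and 18.1 and 19.2 CPM in the other named cells, a log2 ratio of 5.39 (5.26 to 5.52) and 5.42 (5.30 to 5.53). Ctss stood at 1445 and 1485 CPM against 34.6 and 35.8 CPM (log2 5.38 and 5.37). Lgmn, the asparaginyl endopeptidase legumain that processes other cathepsins, stood at 1042 and 1241 CPM against 41.5 and 47.0 CPM (log2 4.65 and 4.72). Macrophage-like cells gave 77.2% and 79.9% of all Ctsc UMIs, 74.1% and 75.0% of those of Ctss, and 73.7% and 76.3% of those of Lgmn. Ctsb, a broadly acting peptidase, was also high elsewhere, at 3919.5 and 4064 CPM against 440 and 461 CPM (log2 3.16 and 3.14), and macrophage-like cells gave 51.9% and 53.8% of its UMIs. Ctsh (586 and 592 CPM against 107 and 105 CPM) and Ctsz (785 and 687 CPM against 233 and 241 CPM) were past the fold with smaller ratios.

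Among the other peptidases all 3 were past the fold. Ctsa, which encodes the protective protein of the galactosidase and neuraminidase complex, had the largest ratio of the 3, at 333 and 371 CPM against 56.9 and 59.3 CPM (log2 2.55 and 2.64). Ctsd, the main aspartic peptidase, stood at 1217 and 1346 CPM against 260 and 282 CPM. Tpp1, which removes tripeptides, stood at 166 and 206 CPM against 49.3 and 55.4 CPM.

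Of the 6 glycosidases 4 were past the fold upward. Gla, the alpha-galactosidase lost in Fabry disease, had the largest ratio, at 175 and 135 CPM against 27.7 and 19.4 CPM (log2 2.66 and 2.80). Hexa (516 and 520 CPM), Man2b1 (226 and 215 CPM) and Neu1 (91.2 and 108 CPM) had log2 ratios between 1.79 and 2.25. Glb1, the beta-galactosidase used as a senescence stain, was at 37.0 and 34.2 CPM against 21.3 and 24.7 CPM, below the fold. Gaa, the glucosidase that degrades glycogen, was lower in macrophage-like cells, at 31 and 31.2 CPM against 65.5 and 77.0 CPM.

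All 5 lipid-handling members were past the fold. Lipa, the acid lipase that hydrolyses cholesteryl esters, had the largest ratio, at 255 and 265 CPM against 51.4 and 49.8 CPM (log2 2.31 and 2.41). Npc1 (150 and 145 CPM) and Npc2 (1009.5 and 851 CPM), which together export cholesterol, had log2 ratios of 2.11 and 2.08 and of 1.88 and 1.71. Psap, the precursor of the saposins that help lipid enzymes, stood at 2538 and 2673 CPM against 686 and 702 CPM, and the ceramidase Asah1 at 239 and 287 CPM against 86.5 and 97.4 CPM.

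The membrane proteins divided. Cd68, a glycoprotein of macrophage late endosomes, stood at 525 and 557 CPM against 14.5 and 15.4 CPM (log2 5.18 in each library). Lamp1 stood at 1057 and 1168 CPM against 366 and 385 CPM (log2 1.53 and 1.60). Lamp2, its relative, was at 466 and 547 CPM against 312 and 371 CPM (log2 0.58 and 0.56), short of the fold, as were Cd63 (log2 0.28 and 0.36) and Scarb2 (log2 0.42 and 0.45).

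The pump subunits and progranulin were past the fold. Atp6v0d2, a subunit known from osteoclasts and macrophages, stood at 45.8 and 51.9 CPM against 0.886 and 0.722 CPM (log2 5.69 and 6.17), while the broadly used subunit Atp6v1a stood at 483 and 592 CPM against 106 and 119 CPM (log2 2.19 and 2.32). Grn encodes progranulin, which supports lysosomal enzymes and is also secreted; it stood at 903 and 808 CPM against 166 and 177 CPM (log2 2.45 and 2.19).

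**Figure D2:**
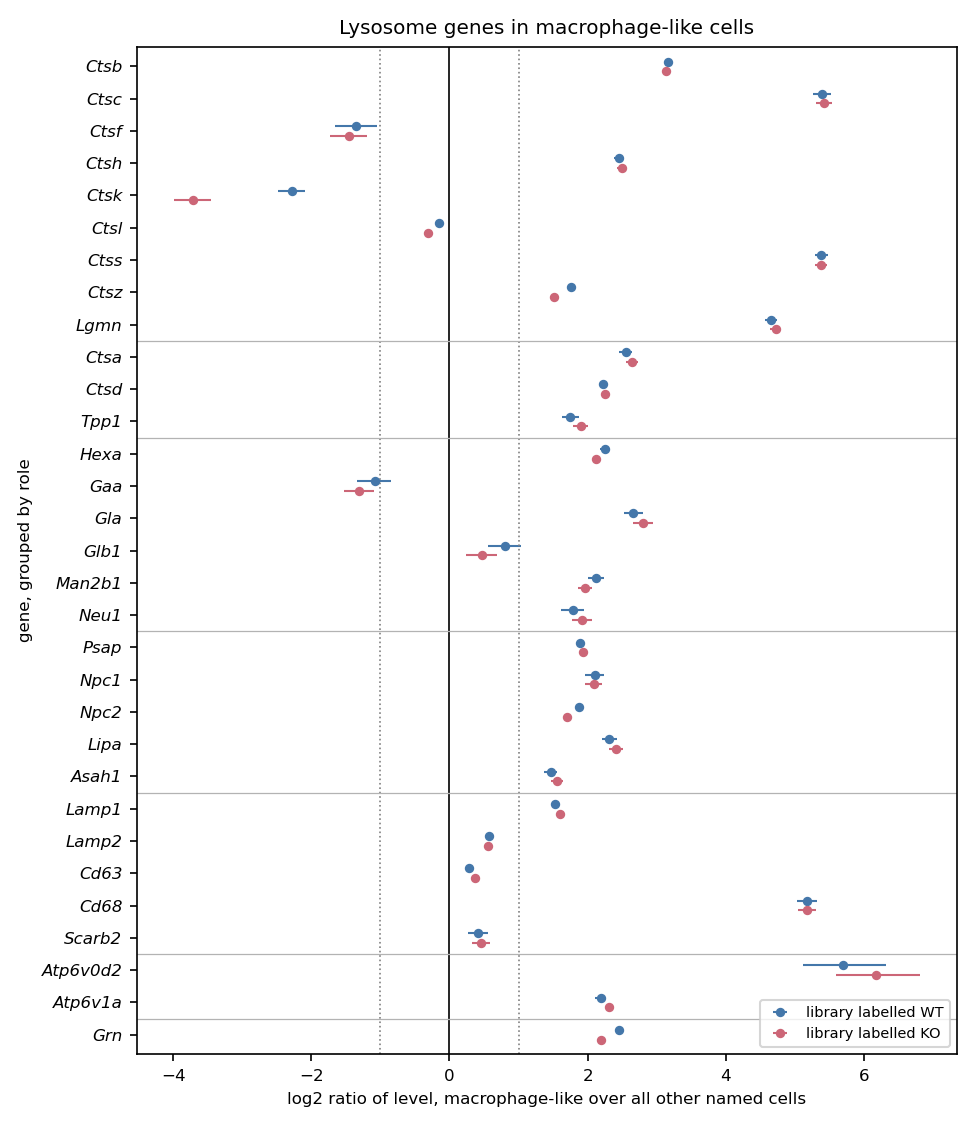
log2 ratio of the level in macrophage-like cells over all other named cells for each member, with exact 95% intervals for counting error (points, blue for the library labelled WT and red for the library labelled KO; dotted lines, a log2 ratio of 1 in size). Ctsc, Ctss, Cd68, Lgmn and Atp6v0d2 lie above 4 in each library, and Ctsf, Ctsk and Gaa lie below -1.

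Against FAP-like cells alone the same number, 23 members, was higher past the fold in macrophage-like cells and 3 were lower, where 14.3% and 23.9% of 12806 genes were. The median was 2.0, compared with -0.24 over all genes. For Ctss the difference reached 9.22 (8.80 to 9.69) and 8.23 (7.96 to 8.51), since FAP-like cells held 2.42 and 4.95 CPM. That is 0.167% and 0.333% of the macrophage-like level, and C1qa, C1qb and C1qc, which FAPs are not known to express, were at 0.226% to 0.321% of theirs. In the library labelled WT Ctss thus lay below these genes, and in the library labelled KO just above their highest value. Whether the Ctss UMIs of FAP-like cells are background was not tested. Ctsc in FAP-like cells stood at 0.862% and 0.775% of the macrophage-like level, Cd68 at 1.48% and 1.87%, and Lgmn at 3.25% and 3.49%, above the complement genes. After cells were thinned to 1000 UMIs, 81 and 96 shallower macrophage-like cells and 29 and 30 FAP-like cells being left out, a Ctss UMI was found in 65.4% and 69.0% of macrophage-like and in 0.240% and 0.359% of FAP-like cells, and a C1qa UMI in 0.863% and 1.16% of FAP-like cells. Without thinning, at a median depth of 5306.5 and 5356 UMIs in macrophage-like and 7991 and 8512.5 UMIs in FAP-like cells, the Ctss shares were 91.0% and 92.9% against 1.7% and 1.73%.

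Several members stood highest outside macrophage-like cells. Ctsk, the collagen-degrading cathepsin, was at 363 and 414 CPM in FAP-like cells and at 44.1 and 20.4 CPM in macrophage-like cells, and FAP-like cells gave 91.1% and 94.1% of its UMIs. Its neighbor Ctss showed the opposite distribution. Ctsf was at 78.2 and 83.5 CPM in FAP-like cells against 20.1 and 21.4 CPM in macrophage-like cells, and Gaa at 103 and 111 CPM against 31 and 31.2 CPM; FAP-like cells gave 76.2% and 79.1% of the Ctsf UMIs and 79.0% and 80.2% of those of Gaa. Ctsl, a broadly expressed cathepsin, was also highest in FAP-like cells, at 1005 and 1113 CPM, with macrophage-like cells at 728 and 714 CPM and endothelial-like cells at 647 and 589 CPM.

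Cd63 stood highest in MuSC-like cells, at 1973 and 1434 CPM. FAP-like cells (1059 and 974 CPM), Schwann-like cells (1074 and 885 CPM) and macrophage-like cells (981 and 943 CPM) followed, and endothelial-like cells held 99.6 and 81.3 CPM. Scarb2, the receptor that carries glucocerebrosidase to the lysosome, stood highest in Schwann-like cells at 211 and 192 CPM, where macrophage-like cells held 103 and 101 CPM. Man2b1 had no single top type. Macrophage-like cells (226 and 215 CPM) and dendritic-like cells (217 and 224 CPM) changed order between the libraries.

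The 65 other lysosome genes listed, which include further enzymes, pump subunits and transporters, gave a smaller shift. That list, too, was made with earlier results of these data known. Of the 64 compared, 31 were higher past the fold in macrophage-like than in all other named cells and 5 were lower, with a median log2 ratio of 1.03. The 3 with the largest means were the membrane protein Laptm5 (918 and 986 CPM against 56.8 and 55.2 CPM), the nuclease Dnase2a (96.6 and 105 CPM against 9.62 and 12.1 CPM) and the phospholipase Pla2g15 (67.3 and 68.8 CPM against 8.80 and 8.27 CPM). Among those lower, the peptidase gene Ctsw of cytotoxic lymphocytes had no UMI in macrophage-like cells and 129 and 120 UMIs in the other named cells. The cystatin Cst6 had 5 and 1 UMIs there, log2 ratios of -2.21 (-3.85 to -0.96) and -5.09 (-10.40 to -2.60), and Laptm4b was at 4.18 and 5.06 CPM against 28.1 and 30.2 CPM.

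Other myeloid cells carried part of the same profile. A cluster led by Lyz1 and Ear2 (110 and 145 cells), which received no type name, gave the members 1.23% and 1.14% of its UMIs. No member was higher there than in macrophage-like cells past a log2 ratio of 0.5 and 22 of 31 were lower, where 9.38% and 28.7% of 9603 genes were; the median was -1.03, and that of all genes -0.34. Ctsl (98.5 and 89.3 CPM), Lgmn (166 and 151 CPM) and Cd63 (165 and 114 CPM) were each lower by a log2 ratio of over 2.5 in each library. Psap (3423 and 3022 CPM), Ctss (1180.0 and 1166 CPM), Ctsz (988 and 726 CPM), Npc2, Lipa and Man2b1 were within the fold of the macrophage-like level in each library, and Ctsh, Ctsk and Glb1 were past it in 1 library only. Dendritic-like cells likewise held Ctss (675 and 722 CPM), Psap (1899 and 1946 CPM) and Ctsh (421 and 397 CPM) but little Ctsd (44.1 and 53.9 CPM, against 1217 and 1346 CPM in macrophage-like cells). Neutrophil-like cells (25 and 33) were too few for the ranking of types. Psap alone was above the macrophage-like level there in both libraries, at 120% and 111% of it. Ctss (132% and 75.6%), Npc2 (143% and 78.2%) and Ctsz (139% and 72.2%) were above it in the library labelled WT only, and Lgmn was at 34.2% and 31.6%.

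Within macrophage-like cells a Trem2 group (295 and 362 cells) and a Lyve1 group (221 and 248 cells) were named from markers; Trem2 and Gpnmb are known from macrophages that take up lipid and debris, and Lyve1 and Folr2 from resident macrophages. The 10 leading genes of the Trem2 group at this resolution, 0.4, held none of its own markers and began with Cxcl3, Slc7a11 and Clec4e. At the finer resolution of 0.8 a cluster with Cxcl3, Clec4e and Il1a among its leading genes was named otherwise. It fell into a group named from Ccl7, Tnf and other chemokine markers (193 and 245 cells). The Trem2 group at 0.4 is thus not purely of the kind that Trem2 and Gpnmb mark. The members' share of UMIs was nearly equal in both, 2.23% and 2.39% in the Trem2 group and 2.17% and 2.32% in the Lyve1 group. Single members differed in both directions, together in a share close to that of all genes. Of 31 members 5 were higher in the Trem2 group past the fold and 4 were lower, where 7.66% and 22.5% of 7743 genes were, and the median was -0.05 against -0.26 over all genes.

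Atp6v0d2 differed most among the members that did not rest on 1 cell, at 72.9 and 89.3 CPM in the Trem2 group against 15.2 and 15.4 CPM in the Lyve1 group (log2 2.26, 1.53 to 3.08, and 2.54, 1.87 to 3.27). Ctsz stood at 1123 and 919 CPM against 468 and 457 CPM (log2 1.26 and 1.01). Ctss stood at 1836 and 1965 CPM against 995 and 1169 CPM (log2 0.88 and 0.75), and Lipa at 342 and 350.0 CPM against 182 and 206 CPM (log2 0.91 and 0.76). Ctsk was also past the fold (log2 2.39 and 0.57), but 1 cell of the library labelled WT held 105 of the 130 Ctsk UMIs of its Trem2 group, and without the cell richest in Ctsk of each group it was not.

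Grn led the members that were lower in the Trem2 group, at 655 and 738 CPM against 1432 and 1142 CPM (log2 -1.13 and -0.63). Ctsc (600 and 723 CPM against 1044 and 1118 CPM), Lamp2 (380 and 481 CPM against 639 and 727 CPM) and Ctsf (12.7 and 15.4 CPM against 26.9 and 27.7 CPM) were also lower past the fold in each library. Ctsb, Ctsd, Lgmn and Npc2 differed by at most 0.14 in size in each library.

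At the finer resolution of 0.8 a smaller Trem2 group (82 and 83 cells) had Gpnmb and Atp6v0d2 among its 10 leading genes. The members made up 2.89% and 3.19% of its UMIs, compared with 2.18% and 2.32% in the Lyve1 group (241 and 286 cells). Over the Lyve1 group 9 members were higher past the fold and 2 (Ctsf and Lamp2) lower, where 8.16% and 22.6% of 6830 genes were. Cd63 (1610 and 1492 CPM against 793 and 933 CPM), Cd68 (753 and 942 CPM against 509 and 572 CPM), Ctsd and Psap joined the 5 named above. Ctsk is thus among the 9, and its ratio without the richest cell is not given for this division. Psap reached 4176 and 4958 CPM against 2283 and 2251 CPM (log2 0.87 and 1.14), Ctsd 2145 and 2520.0 CPM against 1256 and 1475 CPM (log2 0.77 in each library), and Atp6v0d2 174 and 216 CPM against 16.6 and 15.2 CPM (log2 3.39 and 3.83). Of the other lysosome genes, the acid phosphatase Acp5 had the largest ratio in both divisions, at 185 and 92.0 CPM against 6.27 and 6.93 CPM in the coarser one. There, 6 of 59 were higher past the fold and 8 lower, among them Igf2r (41 and 78 UMIs against 4 and 7) on the higher side, and Smpd1, Slc17a5 and Ids, each on at most 120 UMIs per group, on the lower.

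**Figure D3:**
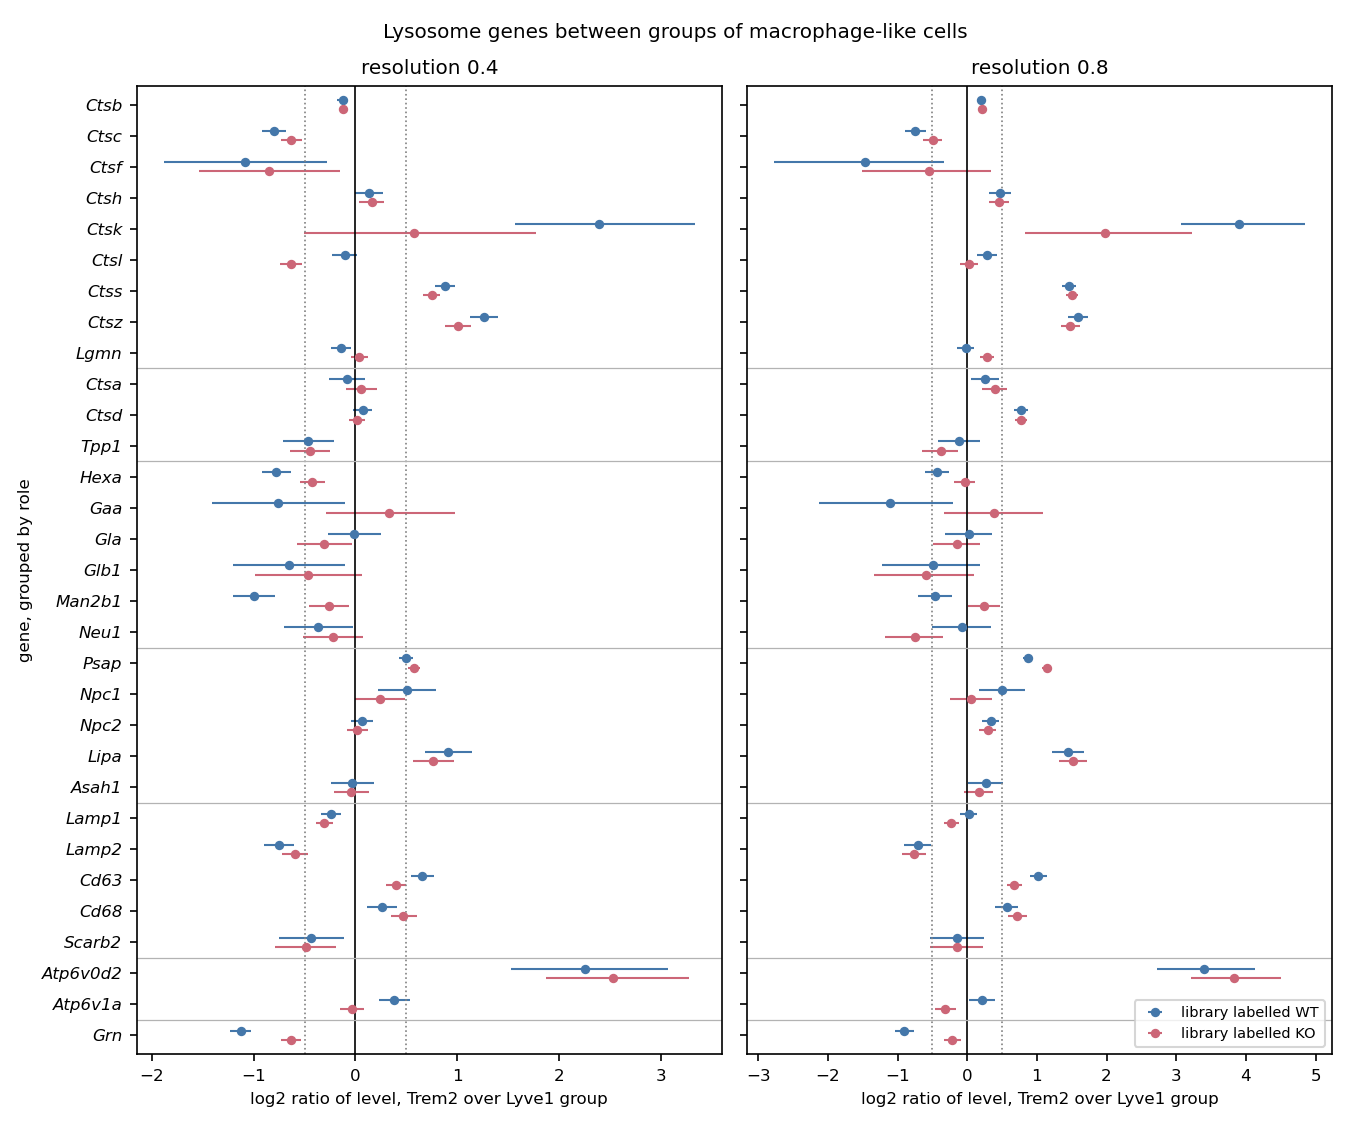
log2 ratio of the level in the Trem2 group over the Lyve1 group of macrophage-like cells for each member, with exact 95% intervals for counting error, at resolution 0.4 (left) and 0.8 (right; dotted lines, 0.5 in size; blue, library labelled WT; red, library labelled KO). Atp6v0d2, Ctsz, Ctss and Lipa lie right of the upper dotted line in both panels, while Psap, Cd63, Cd68 and Ctsd pass it in each library at 0.8 only.

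FAPs are the stromal progenitors of muscle, which lay down matrix and can form fat. Among 6 groups of FAP-like cells the members' share of UMIs was lowest in the Pi16 Dpp4 group (0.589% and 0.618%) and highest in the Sfrp4 group (0.737% and 0.747%), the latter matched in the library labelled WT by the Hsd11b1 Mme group (0.737% and 0.684%). Of 30 members compared, 11 were past the fold in the same direction in each library in at least 1 group, where 58.6% of 12086 genes were. Each group was compared with all remaining FAP-like cells, including 36 and 33 without a group name. Atp6v0d2 was not compared, having too few UMIs. The Fmod Comp group (416 and 370 cells), which has Wif1 as a marker, is close in size to the cluster that scored highest for tenocyte markers. That cluster held 404 and 362 cells, and the cells in common were not counted. Contrasts of the Fmod Comp group may thus largely set tenocyte-like cells against the other FAP-like cells.

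Ctsk was past the fold in opposite directions in the Fmod Comp and Pi16 Dpp4 groups. It stood at 592 and 673 CPM in the Fmod Comp group, which carries tendon and cartilage matrix markers (416 and 370 cells), against 272 and 350.2 CPM in the other FAP-like cells (log2 1.12 and 0.94). In the Pi16 Dpp4 group (333 and 452 cells), whose markers are known from early progenitors, it stood at 175 and 206 CPM against 395 and 455 CPM (log2 -1.18 and -1.14). Lgmn was lower in the Fmod Comp and higher in the Clu Myoc group, at 12.4 and 18.1 CPM in the former against 42.4 and 49.5 CPM, and at 54.9 and 64.0 CPM in the latter (234 and 275 cells) against 31.7 and 41.2 CPM.

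The Pi16 Dpp4 group had the most members past the fold, with 6 of 30 lower and none higher, where 15% and 10.1% of all genes were. Beside Ctsk these were Cd63 (664 and 689 CPM against 1127 and 1029 CPM), Atp6v1a (72.8 and 75.0 CPM against 109 and 125 CPM), Gla (15.8 and 7.74 CPM against 29.6 and 21.9 CPM), Ctsc and Ctss. In the Fmod Comp group 1 member was higher and 3 were lower (Lgmn, Ctsc and Ctss), where 9.61% and 17.4% of all genes were. In the Sfrp4 group (134 and 121 cells) 3 were higher and 1 lower, where 13% and 10.2% were: Man2b1 stood at 88.5 and 81.0 CPM against 46.4 and 47.2 CPM, Npc2 at 478 and 444 CPM against 303 and 288 CPM, and Ctsc at 15.3 and 19.6 CPM against 6.11 and 5.85 CPM, while Cd68 rested on 1 and 4 UMIs there.

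In the Clu Myoc group 2 members were higher (Lgmn and Cd68) and 2 lower (Ctsh and Ctss), where 9.93% and 7.12% of all genes were. Ctsh stood there at 66.6 and 86.7 CPM against 159 and 139 CPM. The Hsd11b1 Mme group (340 and 431 cells) had Ctss alone, lower, where 12.6% were higher and 8.38% lower, and the Ccl7 Ifi205 group (622 and 858 cells) had no member past the fold, where 4.32% and 17% were. Ctss values in these groups rested on 1 to 11 UMIs each. Every group's reference included the FAP-like cells without a group name, and Ctss ratios without those cells were not taken. The lower Ctss values are therefore not shown to hold against the other named groups. Of the Ctss UMIs of FAP-like cells 34.1% and 67.3% lay in 36 and 33 cells without a group name, which gave 2.22% and 1.81% of all FAP-like UMIs and also held 39.6% and 41.9% of the C1qa UMIs and 60.0% and 66.6% of the Cd74 UMIs of FAP-like cells.

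**Figure D4:**
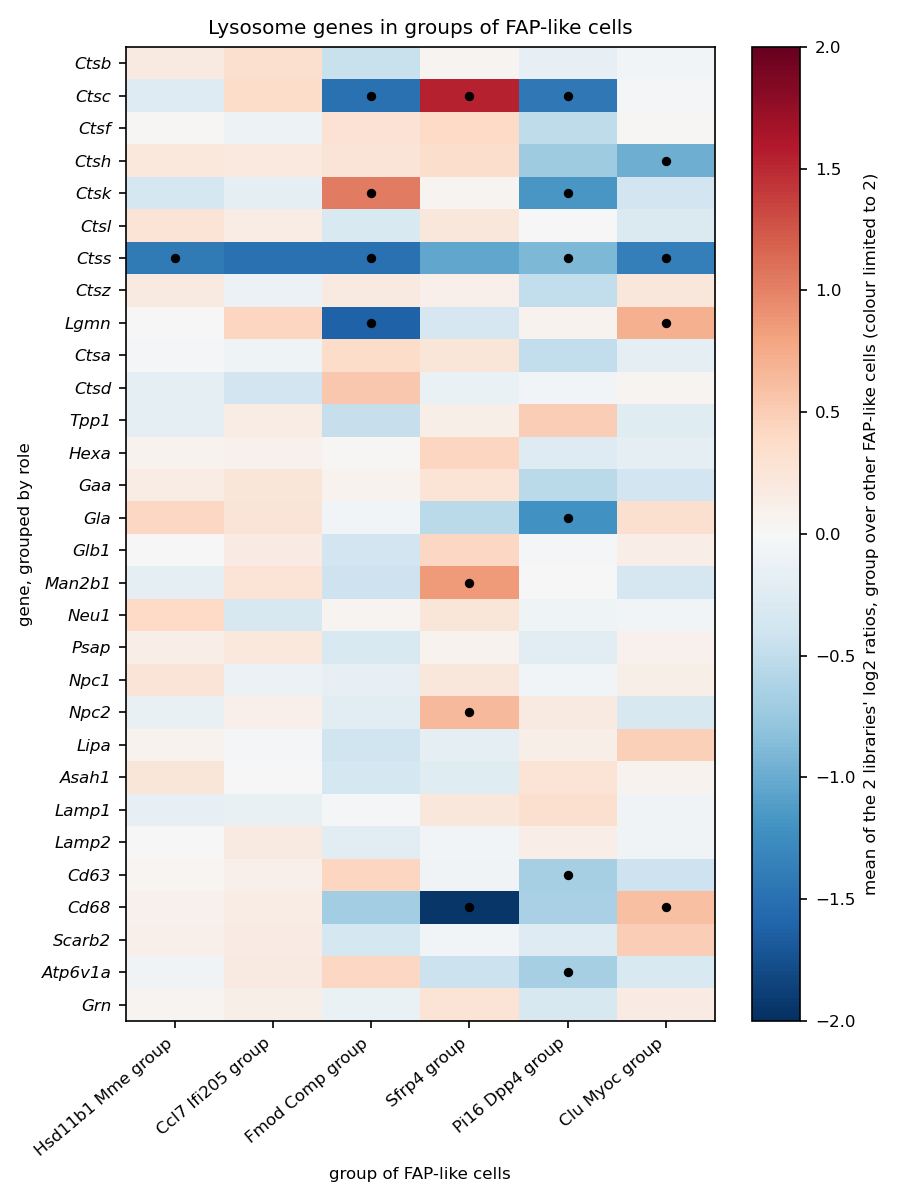
Mean of the libraries' log2 ratios of the level in each group of FAP-like cells over the remaining FAP-like cells, for the 30 members compared (rows, grouped by role; red, higher; blue, lower; color limited to 2). Dots mark ratios of at least 0.5 in size and of the same sign in each library: Ctsk is red in the Fmod Comp group and blue in the Pi16 Dpp4 group, and the Ccl7 Ifi205 column has no dot.

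Between the libraries the members differed little in the 3 largest types. Log2 ratios between the libraries are those of the one labelled KO over the one labelled WT. In macrophage-like cells none of 31 was higher past the fold in the library labelled KO and 1 was lower (Ctsk), where 7.33% and 8.81% of 9226 genes were; the median was 0.05 and the range -1.11 to 0.31. In FAP-like cells 1 of 30 was higher (Ctss) and none lower, where 5.56% and 8.26% of 12086 genes were, with a median of 0.08. In endothelial-like cells none was higher and 3 of 30 were lower, where 6.46% and 5.11% of 10430 genes were, with a median of 0.02. MuSC-like cells had no member of 22 past the fold in either direction, where 16.8% of 6383 genes were higher and 13.1% lower.

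The difference of Ctsk in macrophage-like cells rested on 1 cell. Its level was 44.1 and 20.4 CPM, a log2 ratio of -1.11 (-1.45 to -0.78). One cell of the library labelled WT, with 30442 UMIs, held 105 of the 211 Ctsk UMIs (49.8%), and the next highest cell held 7. That cell also held 122 UMIs of Gpnmb, 26 of Acp5 and 18 of Atp6v0d2, with 21 of C1qa and 12 of Adgre1, and 1 each of the FAP genes Dcn and Col1a1. Without the richest cell of each library the levels were 22.3 and 18.6 CPM and the ratio -0.26 (-0.66 to 0.14). In the Trem2 group the ratio was -2.42 (-3.05 to -1.83) with that cell and -0.58 (-1.51 to 0.32), on 25 and 20 UMIs, without it.

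The difference of Ctss in FAP-like cells likewise rested on few cells. Levels were 2.42 and 4.95 CPM (log2 1.03, 0.52 to 1.57), and 1 cell of the library labelled KO, with 40888 UMIs, held 44 of the 113 UMIs. It held 3166 UMIs of Col1a1 and 805 of Dcn together with 144 of Cd74 and 32 of C1qa. Without the richest cells the ratio was 0.46 (-0.12 to 1.06), and Gla, at -0.51, was then the 1 member past the fold in FAP-like cells. The 36 and 33 FAP-like cells without a group name held 15 of the 44 and 76 of the 113 Ctss UMIs. The Ctss ratio in the remaining FAP-like cells was not taken, so a difference outside those cells is not shown.

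Gla was lower in the library labelled KO in the 4 types in which it was compared, though past the fold in a part of them. The share of all genes with a single sign over so few types was not counted. Levels were 175 and 135 CPM in macrophage-like cells (log2 -0.37, -0.51 to -0.23), at 27.6 and 19.6 CPM in FAP-like cells (-0.49, -0.68 to -0.31), at 25.8 and 17.4 CPM in endothelial-like cells (-0.57, -0.89 to -0.25) and at 57.7 and 28.3 CPM in dendritic-like cells (-1.03). In endothelial-like cells Ctsc (7.28 and 4.74 CPM) and Cd68 (11.5 and 7.44 CPM) were the others past the fold, on 60 and 37 and on 95 and 58 UMIs.

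Cd63 was lower in the library labelled KO in 8 of 8 types, from -0.06 in macrophage-like cells to -0.46 in MuSC-like, -0.73 in dendritic-like and -1.30 in T cell-like cells. Of the 1776 genes compared in all 8 types, 10.3% were lower and 4.62% higher throughout, and of the 9 members compared in all 8, Cd63 was the 1 with a single sign. Atp6v1a was higher in 7 of 7 types, from 0.16 in endothelial-like to 0.72 (0.07 to 1.40) in pericyte-like cells; of the 3990 genes compared in at least 6 types, 6.42% were higher and 8.47% lower throughout. In macrophage-like cells it was at 483 and 592 CPM (log2 0.29, 0.22 to 0.37) and in the Lyve1 group at 462 and 681 CPM (0.56, 0.40 to 0.72). Lamp2 was higher in 7 of 8 types and Npc2 lower in 7 of 8, with ratios between -0.05 and 0.44 and between -0.39 and 0.07. The share of all genes with such a split was not counted. Among members compared in at least 6 types, only Atp6v1a and Cd63 had a single sign. Gaa and Ctsf were each higher in all 5 types in which they were compared, at 0.01 to 0.49 and 0.05 to 0.47. The share of all genes with a single sign over that few types was likewise not counted.

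**Figure D5:**
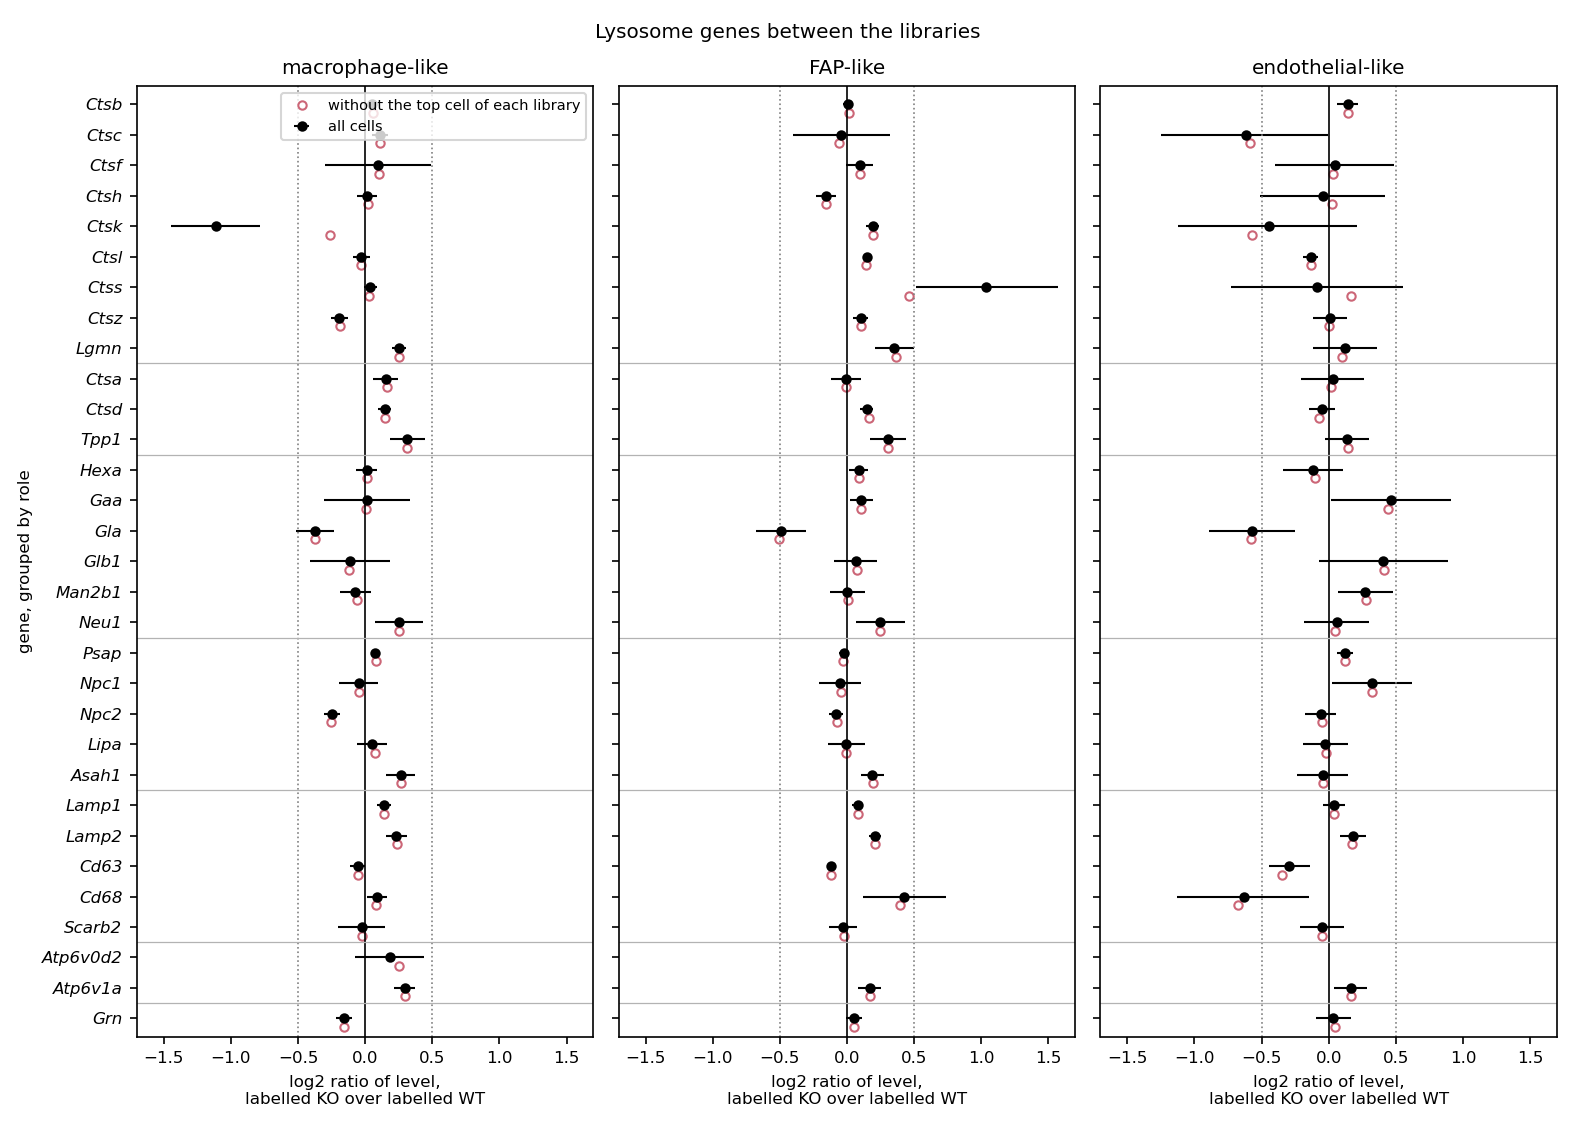
log2 ratio of the level in the library labelled KO over the library labelled WT for each member compared, in macrophage-like, FAP-like and endothelial-like cells (filled points with exact 95% intervals for counting error; open points, without the cell richest in that gene in each library; dotted lines, 0.5 in size). Open points of Ctsk in macrophage-like cells (-0.26) and Ctss in FAP-like cells (0.46) lie inside the dotted lines, and Gla lies left of 0 in each panel.

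Smaller types gave larger ratios from fewer UMIs. In dendritic-like cells 1 of 24 members was higher in the library labelled KO (Ctsa, 64.0 and 103 CPM) and 6 were lower (Ctsl, Ctsz, Lgmn, Gla, Npc1 and Cd63), where 12.7% and 10.3% of 4197 genes were; Ctsz, on the most UMIs of these, stood at 552 and 362 CPM (log2 -0.61, -0.80 to -0.42). In T cell-like cells none of 11 was higher and 7 were lower (Ctsb, Ctsc, Ctsz, Man2b1, Psap, Lamp1 and Cd63), where 11.9% and 15.6% of 2596 genes were, with a median of -0.62 against -0.05 over all genes. In the library labelled WT these 83 cells also held more macrophage RNA: C1qa, C1qb and C1qc reached 2.71%, 1.98% and 1.86% of their macrophage-like levels here, compared with 0.370%, 0.249% and 0.323% in the other library, and the part of this RNA in the T cell-like ratios was not tested. Schwann-like cells had Lgmn alone of 25, higher (61.5 and 88.5 CPM), where 9.66% were higher and 7.51% lower, and without the richest cells its ratio was 0.37 (-0.12 to 0.86). Pericyte-like cells had Atp6v1a higher and Lgmn and Asah1 lower of 16, where 9.65% and 17.1% were, on 25 to 64 UMIs per library.

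Within the groups the members past the fold between libraries were again few. In the Trem2 group these were Ctsk, Gla (167 and 118 CPM, log2 -0.50) and Gaa (21.2 and 30.0 CPM), and in the Lyve1 group Atp6v1a and Gaa (35.8 and 23.9 CPM), so that Gaa differed in opposite directions on 31 to 76 UMIs per library; 10.9% of genes were higher and 8.92% lower in the former, 8.61% and 13.1% in the latter. Among the FAP groups, Ctsk stood at 287 and 424 CPM in the Ccl7 Ifi205 group (log2 0.56, 0.48 to 0.65), where 8.09% of 9574 genes were higher and 12.9% lower, and Gla was lower there and in the Pi16 Dpp4 group (15.8 and 7.74 CPM), where 7.68% were lower and 6.28% higher. The Fmod Comp group had Tpp1, Lgmn and Cd68 higher and none lower, where 10.1% and 5.9% were, the Hsd11b1 Mme group had Cd68 lower and none higher, where 10.4% and 5.81% were, and the Sfrp4 group Gaa, Lipa and Tpp1 higher and Neu1 lower, where 8.95% and 11.1% were. The Clu Myoc group had none of 28 past the fold, where 6.7% of genes were higher and 8.59% lower.

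Among the other lysosome genes, 3 of 61 were higher past the fold in macrophage-like cells of the library labelled KO and 2 lower. Galc, the galactocerebrosidase, was at 31.4 and 49.7 CPM (log2 0.67, 0.38 to 0.96), the sorting receptor Igf2r at 20.1 and 34.4 CPM and Sort1 at 3.56 and 6.24 CPM, while Acp5 was at 96.4 and 55.6 CPM (log2 -0.79) and Smpd1 at 16.3 and 11.5 CPM. In FAP-like cells 4 of 62 were higher and none lower, the 3 largest being Galc (4.67 and 7.57 CPM), Idua (4.56 and 7.05 CPM) and Cst6 (2.64 and 4.03 CPM). The cell rich in Ctsk held 26 of the 461 Acp5 UMIs of its library.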

How the data were processed

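Cells of CTX-injected gastrocnemius were measured in 1 library per genotype. The authors counted UMIs with Cell Ranger (2.1.1 and mm10 per the processing notes in the labels), removed doublets and cells rich in mitochondrial RNA, and deposited 1 table of natural log values, ln(1 + UMIs per 10000 UMIs of the cell). The paper's methods name a later version of Cell Ranger, and which was used for this table could not be told. UMIs were recovered by undoing the log and scaling each cell so that its smallest value was 1 UMI; none of the 29528482 nonzero values lay more than 0.286 from a whole number. Barcode suffixes named the library (1, KO; 2, WT). The libraries held 44758518 and 50930010 UMIs. No mitochondrial gene was listed. Both this recovery and the ratio step were tested on simulated data.

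Cells were clustered in Seurat 5.3.0 (R 4.3.3) on 2000 variable genes, 30 principal components (20 within a type), 20 neighbors and resolution 0.8 (0.4 within a type), with the Harmony steps rewritten in R and seed 1. Clusters were named from markers; parts of the naming rule (a second lineage, low depth) were set after clusters were seen. Scrublet in scanpy 1.11.5 called 100 and 118 cells as doublets, which were kept. Levels, intervals and ratios used Python 3.11.15, numpy 2.4.6, scipy 1.17.1 and pandas 2.3.3; positions came from GENCODE M21. All 31 members are placed by role, with values for members past a fold, the largest macrophage ratio in each role and those highest elsewhere; of the other lysosome genes the 3 largest in each direction are named, except 1 that is not reported here. The members and lists were chosen with earlier results of these data known. Alternatives changed the level, integration, resolution, clustering genes, depth, doublets, centering and UMI minimum; those leaving out the richest cell per gene, or unnamed macrophage-like groups, were chosen after seeing the data. Without replicate libraries no count model was fitted.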

Additional observations from a re-analysis of the deposited data

Results flagged for a closer look

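Of the members, 3 were past the fold between the libraries in opposite directions in different cells with counting intervals clear of 0, as log2 ratios of the library labelled KO over the one labelled WT; these differences were not tested, since each genotype had 1 library. Ctsk was at 0.56 (0.48 to 0.65) in the Ccl7 Ifi205 group of FAP-like cells, -2.42 (-3.05 to -1.83) in the Trem2 group and -1.11 (-1.45 to -0.78) over all macrophage-like cells, and 1 cell held 105 of the 211 Ctsk UMIs of macrophage-like cells in the library labelled WT. Lgmn was at 0.53 in Schwann-like cells, 0.55 in the Fmod Comp group and -0.62 in dendritic-like cells. In Schwann-like cells its interval included 0 once the richest cells were left out, as given above. Cd68 was at 1.05 in the Fmod Comp group, -0.63 in endothelial-like cells and -1.29 in the Hsd11b1 Mme group, on 21 to 95 UMIs per library. Gaa was past the fold in opposite directions in the Trem2 and Lyve1 groups, with intervals that included 0. The share of all genes with such opposite ratios was not counted, so the number of members is not set against it.

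Cells of clusters without a name, other than the cluster led by Lyz1 and Ear2, entered no comparison (944 and 986 cells). The members made up 0.387% (library labelled WT) and 0.374% (library labelled KO) of their UMIs.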

How the results depend on the processing

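The count of members higher in macrophage-like cells stayed at 23 against FAP-like cells in each alternative and at 23 against all other named cells, except for 24 when ratios were centered on the median of all genes, which lay at -0.47. Members higher in the Trem2 group numbered 5, and 8 without integration, at an overall resolution of 0.4, when centered (the median of all genes lay at -0.26) or when cells were thinned to 1000 UMIs, and 9 at a resolution of 0.8 within macrophage-like cells. Between the libraries, the count in macrophage-like cells went from 1 to 0 without the richest cell. In FAP-like cells it went from 1 to 0 at a minimum of 200 UMIs, which fewer genes pass, and to 2 when thinned. In endothelial-like cells it went from 3 to 5 with a mean over cells, to 1 at a minimum of 200 UMIs and to 0 when thinned. The number of members past the fold in a FAP group ran from 8 to 14 around 11.

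Of 1285 single values, 7 changed sign. When thinned, Cd68 was at 0.86 in the Sfrp4 group and at -0.66 in the Clu Myoc group. Ctsc in endothelial-like cells was at 0.33 with a mean over cells. Lgmn in pericyte-like cells was at 0.056 without integration, 0.19 at resolution 0.4, 0.068 at resolution 1.2 and 0.10 with lysosome genes kept for clustering. Apart from the richest cell and the UMI minimum, the cause was not tested. No paired analysis was possible because each genotype had 1 library, and for the same reason no replicate could be left out. Ratios in types of few cells rest on few UMIs.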
